A study of Mus musculus with 27 samples.

Results

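The genes described here encode the proximal signalling machinery of the T cell receptor: the CD3 chains, the coreceptor and surface modulators, the first kinases, the adaptors, the enzymes they feed, the NFAT factors and the negative regulators. They were taken from a list of 40 genes, each represented by the probe set with a single gene symbol that was brightest on average over 27 arrays. Values were obtained for 39 of the 40, among 18194 genes measured. For Lck, the kinase that phosphorylates the CD3 chains, no probe set carried that symbol alone in the gene table used here, so it has no value below.

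A T cell recognises antigen through a receptor that has no enzyme of its own and signals through the CD3 and zeta chains. Lck and Fyn phosphorylate those chains, Zap70 docks on them and phosphorylates the adaptors Lat and Lcp2 (SLP-76), and the adaptors assemble the enzymes that release calcium and activate Ras, protein kinase C theta, NF-kB and NFAT. Phosphatases, ubiquitin ligases and diacylglycerol kinases limit the signal. Regulatory T cells (Tregs), which are defined by the transcription factor Foxp3, are selected in the thymus by relatively strong receptor signals, and their precursors are CD4 single-positive thymocytes that carry the IL-2 receptor chain CD25 before Foxp3 appears.

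Total RNA was measured on Affymetrix 3' arrays in 9 sorted T cell groups of BALB/c mice, 3 arrays a group. CD4 single-positive thymocytes that carried or lacked a Foxp3-linked GFP were sorted at high, intermediate and low CD24, a surface protein lost during maturation, which gave Foxp3+ and Foxp3- cells at CD24hi, CD24int and CD24lo. Thymic Treg precursors, Foxp3- and CD25+ by the series title, formed the seventh group, with no CD24 level stated, and lymph node Tregs and naive T cells formed the others. By the title the Foxp3- thymocytes lacked CD25. Their source labels carry the word Treg, while the design text calls them conventional T cells, and they are treated as such. A GFP sort isolates cells that express the reporter at that moment, and no further allele, age or sex is used here. Nothing in the labels ties a replicate to an animal of its own. The p-values below therefore rest on the spread among these samples, which may be technical.

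Deposited intensities lay between 3.55 and 24083, the median of an array between 30.3 and 32.0, and replicates of a group correlated at 0.987 to 0.997 across genes. Foxp3 averaged 9.90 to 10.07 log2 units in the 4 Foxp3+ groups and 3.80 to 4.17 in the 5 others, Il2ra (CD25) was at 8.16 ± 0.29 (SD, n = 3) in precursors, and Cd24a followed the gates, at 10.34, 9.08 and 7.63 in the Foxp3+ and 10.93, 8.21 and 6.00 in the Foxp3- thymocytes. Replicate 3 of Foxp3- CD24hi held liver transcripts, with a mean of 8.71 log2 units over 7 liver genes against at most 4.39 in the 26 other arrays. Innate-like T cell markers, 10 of 12 measured, had a summed intensity of 15607 to 17458 in the Foxp3- CD24lo arrays and 346 to 3123 in the 24 others. Cell cycle genes stood on average 0.43 log2 units above the group mean in arrays numbered 1, in 9 of 9 groups. Of 7 markers of CD4 T cells 5 were measured and these 5 were above log2 6 in every group, but 4 of them are members of the set described here. With 3 arrays a group, it is their number that sets the precision.

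All 39 members were brighter than the median gene. The median member stood at the 94.55th percentile of mean level among all genes, and the lowest, Grap2, at the 60.29th. The distance between the highest and the lowest of the 9 group means had a median of 0.87 log2 units over the members and 0.45 over all genes. It was 1 or more for 19 members and under 0.5 for 4, namely Ptprc, Bcl10, Cd3e and Cd3d. Over all 18194 genes, dim ones included, it was 1 or more for 3144 and under 0.5 for 10135. Tec varied most (1.83), followed by Themis (1.73), Ubash3b (1.73), Cd2 (1.70) and Pag1 (1.50), and Cd3d varied least (0.31). These ranges were not tested.

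**Figure D1:**
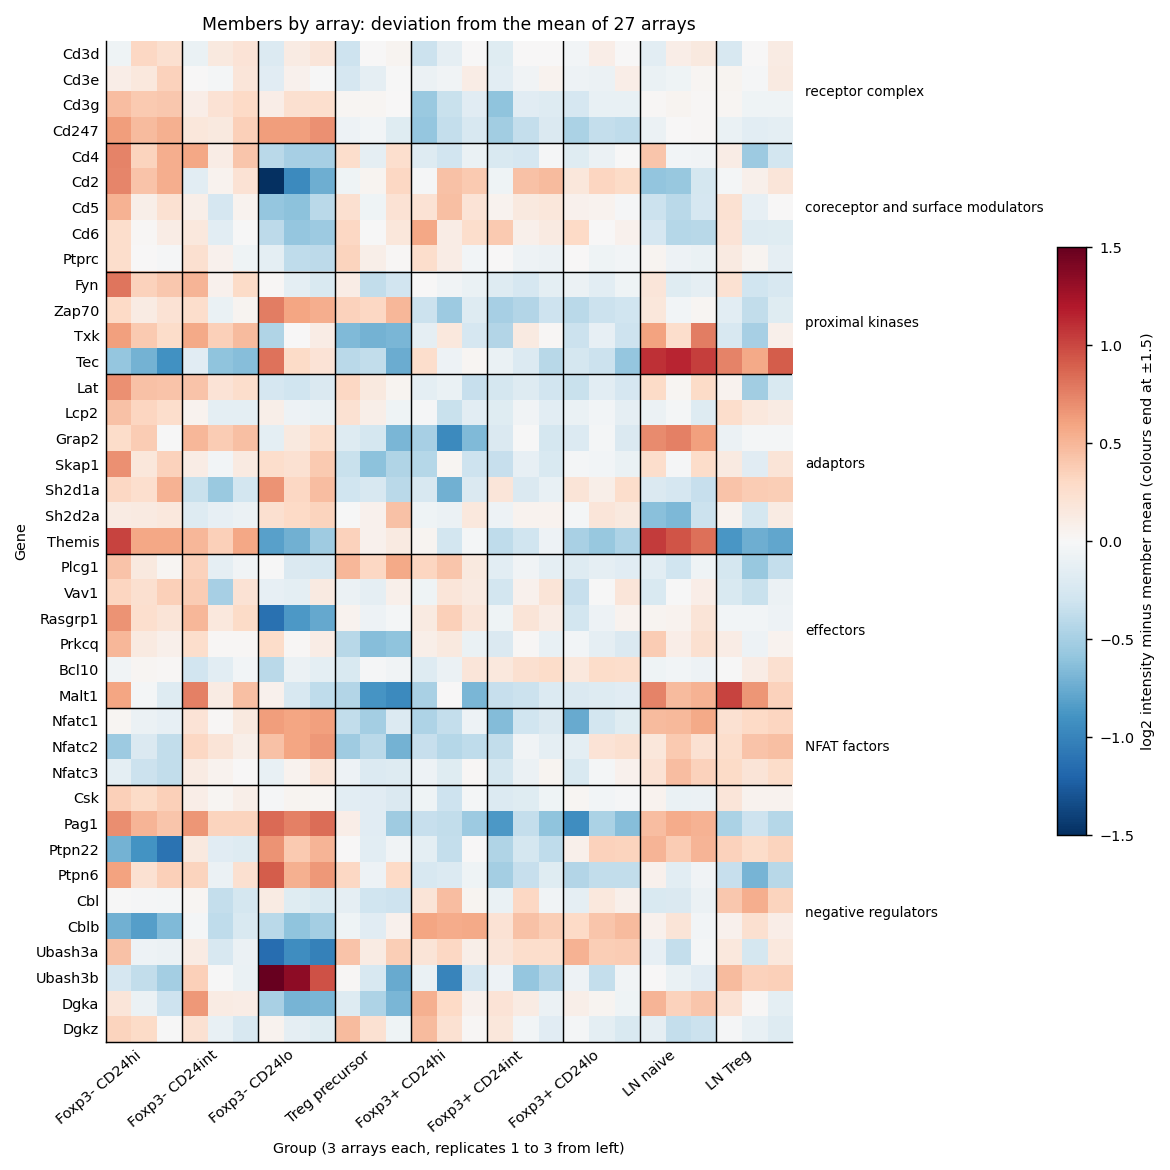
Log2 intensity of the 39 measured members on the 27 arrays, as the deviation from each member's mean (red above, blue below, colours ending at ±1.5 log2 units); columns are arrays in 9 groups of 3 and rows are genes ordered by role. The Foxp3- CD24lo columns stand apart in Cd2, Ubash3a, Ubash3b and Rasgrp1, and the Foxp3+ columns are low in Cd247, Zap70 and Pag1 and high in Cblb.

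The first question was how the machinery differs between Foxp3+ and Foxp3- thymocytes. Averaged over the 3 CD24 levels, 20 of 39 members fell and 8 rose in Foxp3+ cells, in limma with an adjusted p under 0.05, where over all genes 16.0% fell and 14.5% rose. The falls were 6 adaptors, 4 negative regulators, 3 kinases, 2 receptor chains, 2 effectors, 2 NFAT factors and 1 coreceptor (Cd4), and Pag1, Cd247, Ptpn6, Zap70 and Ubash3b fell most. Those that rose were 4 negative regulators (Cblb, Ubash3a, Dgka and Cbl), 3 surface modulators (Cd2, Cd6 and Cd5) and Bcl10. The median difference of the members was -0.21, and that of all genes was -0.01. Among the 9551 genes whose highest group mean was log2 6 or more, 2739 fell and 2415 rose. The members' share of rises, 20.5%, was below that of these brighter genes, while their share of falls, 51.3%, was above it. In every comparison made here, a larger share passed among the brighter genes than among all genes. In whole-population RNA, fewer cells with a transcript and less transcript per cell cannot be told apart.

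The same comparison within each CD24 level uses the same arrays. At CD24hi 15 members fell and 3 rose (all genes 9.65% and 8.38%), at CD24int 14 fell and 2 rose (6.62% and 8.66%), and at CD24lo 9 fell and 8 rose (11.2% and 9.85%). Of the 9551 brighter genes 1912 fell and 1501 rose at CD24hi, 1234 and 1585 at CD24int, and 1907 and 1753 at CD24lo. The members' shares at CD24lo, 23.1% lower and 20.5% higher, were close to those of the brighter genes. At each of the 3 levels 5 members passed as lower, Cd3g, Cd247, Zap70, Pag1 and Ptpn6, and Cblb passed as higher at each. Without the CD24lo groups the averaged comparison called 18 members, 16 lower and 2 higher, so that the share of higher calls went from 28.6% to 11.1%. Over all genes 2242 fell and 2189 rose in that setting, and the share of higher calls went from 47.5% to 49.4%. At CD24int 10 members passed without replicate 1 of Foxp3+ CD24int, 9 without replicate 1 of Foxp3- CD24int and 9 without the arrays numbered 1 in every group. Without the array that held liver transcripts, 26 members passed in the averaged comparison and 19 at CD24hi.

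Markers of other cells moved with these comparisons. Cell cycle genes fell in Foxp3+ cells, 19 of 20 in the averaged comparison and 4, 15 and 11 at the 3 levels. Their summed intensities were 12384 to 18326 in Foxp3+ and 19346 to 32314 in Foxp3- thymocytes. Innate-like markers fell in Foxp3+ cells at CD24int (8 of 10, with 1 higher), while at CD24hi 2 of 10 rose. Of 12 markers of antigen-presenting cells 6 fell at CD24int and 5 at CD24lo, with summed intensities of 403 to 687 in Foxp3+ and 561 to 1092 in Foxp3- thymocytes. Of 6 CD8 T cell markers 3 fell and 1 rose at CD24hi, with summed intensities of 449 to 512 in Foxp3+ against 784 to 894 in Foxp3- cells. The part of these markers in the members' differences was not tested.

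**Figure D2:**
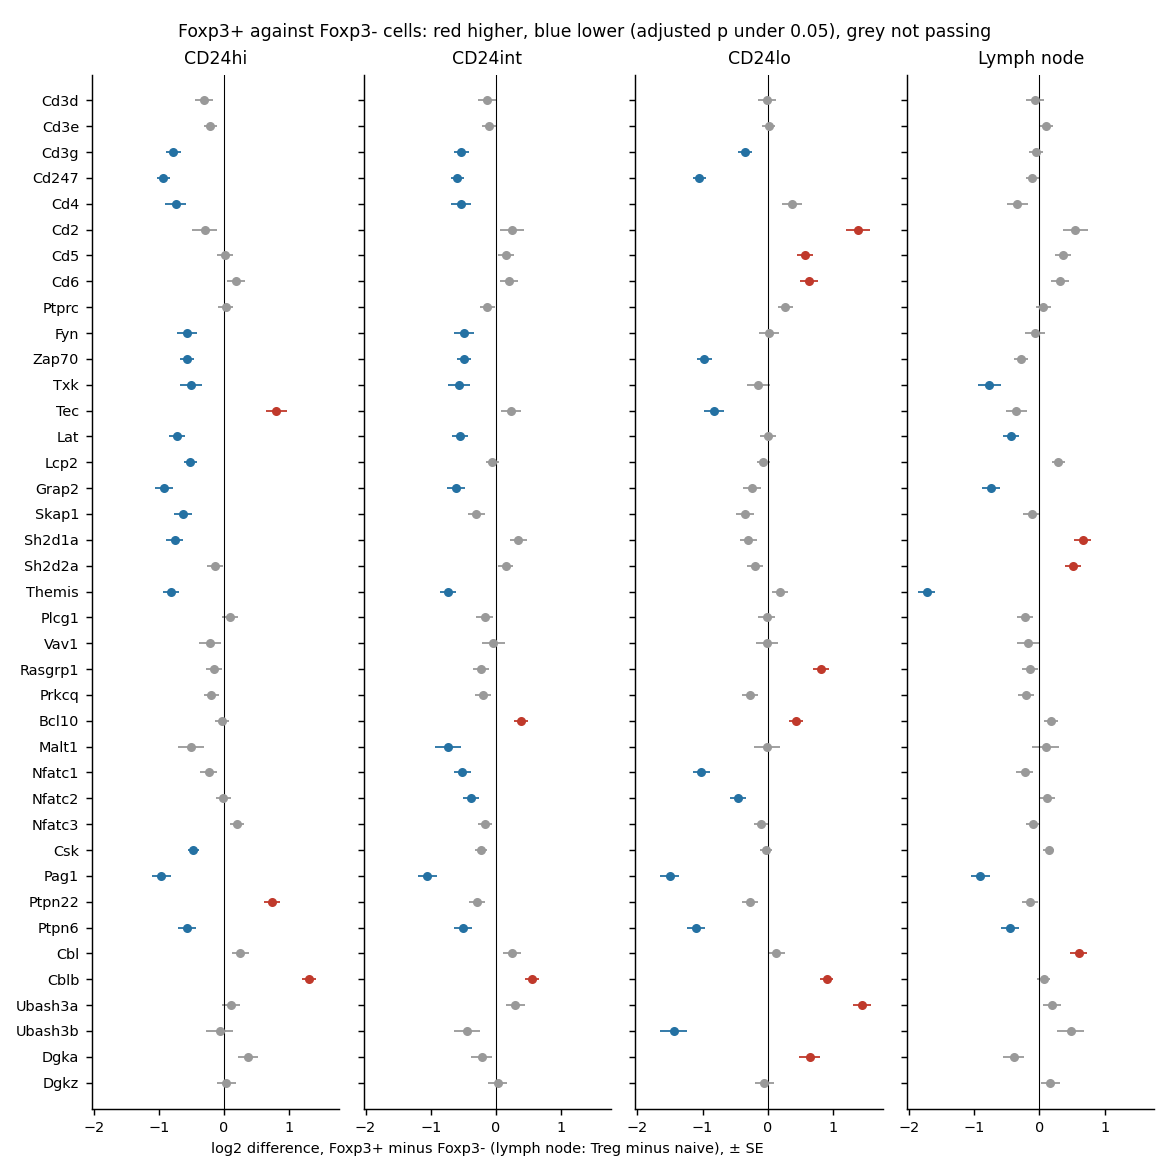
Log2 difference of each member, Foxp3+ minus Foxp3- cells at CD24hi, CD24int and CD24lo, and lymph node Treg minus naive cells, with limma standard errors (3 arrays a group; red higher, blue lower, grey not passing). Pag1 lies left of 0 in each of the 4 panels, from -0.91 to -1.50, while Cblb lies at 1.30, 0.56 and 0.90 in thymus and 0.07 in lymph node.

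Of the 4 receptor chains Cd247 and Cd3g passed in the averaged comparison. Cd3e, the epsilon chain, read 10.83, 10.89 and 11.08 log2 units on the Foxp3- CD24hi arrays, 10.73, 10.70 and 10.91 at CD24int and 10.56, 10.80 and 10.72 at CD24lo. On the Foxp3+ arrays it read 10.65, 10.68 and 10.84, then 10.57, 10.68 and 10.78, then 10.65, 10.65 and 10.83. The groups overlapped at every level, and the averaged difference was -0.10 ± 0.06 (standard error; adjusted p = 0.239 in limma; 95% interval -0.22 to 0.02). Cd3d, the delta chain, did not pass either, at -0.16 ± 0.08 (adjusted p = 0.157). When replicate number entered the fit as a block both passed at CD24hi, Cd3e at -0.21 (adjusted p = 0.032) and Cd3d at -0.31 (adjusted p = 0.0024).

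Cd247, which encodes the zeta chain that docks Zap70, read 11.99, 11.83 and 11.89 on the Foxp3- CD24hi arrays, 11.54, 11.51 and 11.72 at CD24int and 11.99, 11.98 and 12.04 at CD24lo. On the Foxp3+ arrays it read 10.79, 11.01 and 11.12, then 10.85, 11.00 and 11.14, then 10.89, 11.01 and 10.98. Every Foxp3+ array was below every Foxp3- array, and the fall was 1.81-fold on average (-0.86 ± 0.06, adjusted p = 6.22e-12) and -0.93, -0.59 and -1.05 at the 3 levels. Among the other probe sets of Cd247, 1 stood at -0.95 on average and another at 0.24. Averaged over its probe sets, Cd247 did not pass at CD24int (-0.23, adjusted p = 0.20). Cd3g, the gamma chain, fell by 0.55 ± 0.06 on average (adjusted p = 1.21e-07). It was at -0.78 at CD24hi, -0.53 at CD24int and -0.35 at CD24lo, and the last call was lost without replicate 1 of Foxp3+ CD24lo (-0.30) or without replicate 2 (-0.33) or 3 (-0.32) of Foxp3- CD24lo.

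Cd3g and Cd3d are neighbours on chromosome 9 and are transcribed away from each other, and Cd3g fell at each CD24 level while Cd3d did not pass at any without the block. Their promoters are shown so that the neighbours can be compared, with those of Cd247, Lat and Cblb as a receptor chain, an adaptor and a negative regulator whose array values are given here. The sequences are the 250 bases before the start, 5' to 3' on the gene's strand, from RefSeq on GRCm38.p6, and capitals mark E-boxes (CANNTG), the sites bound by helix-loop-helix factors such as E2A and HEB. Cd3d lies at chr9:44981536-44981785 (plus strand), Cd3g at chr9:44980432-44980681 (minus), Cd247 at chr1:165788431-165788680 (plus), Lat at chr7:126369569-126369818 (minus) and Cblb at chr16:52031299-52031548 (plus).
Cd3d: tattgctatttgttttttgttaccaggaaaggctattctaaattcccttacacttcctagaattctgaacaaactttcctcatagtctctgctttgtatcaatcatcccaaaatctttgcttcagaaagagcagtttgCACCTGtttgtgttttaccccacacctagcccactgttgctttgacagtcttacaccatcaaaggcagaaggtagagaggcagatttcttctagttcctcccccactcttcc
Cd3g: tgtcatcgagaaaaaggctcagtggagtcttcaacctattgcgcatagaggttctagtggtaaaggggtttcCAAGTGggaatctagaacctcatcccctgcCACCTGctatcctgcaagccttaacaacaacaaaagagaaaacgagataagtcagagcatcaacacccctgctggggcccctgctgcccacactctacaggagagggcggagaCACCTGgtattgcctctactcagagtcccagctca
Cd247: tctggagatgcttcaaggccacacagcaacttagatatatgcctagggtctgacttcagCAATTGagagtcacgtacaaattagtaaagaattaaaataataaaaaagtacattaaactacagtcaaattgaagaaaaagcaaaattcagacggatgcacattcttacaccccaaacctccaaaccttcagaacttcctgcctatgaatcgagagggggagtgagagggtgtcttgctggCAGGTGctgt
Lat: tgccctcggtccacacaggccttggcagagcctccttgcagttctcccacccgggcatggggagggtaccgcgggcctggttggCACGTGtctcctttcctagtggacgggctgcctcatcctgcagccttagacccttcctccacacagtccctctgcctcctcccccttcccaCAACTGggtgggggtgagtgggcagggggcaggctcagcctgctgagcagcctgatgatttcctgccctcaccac
Cblb: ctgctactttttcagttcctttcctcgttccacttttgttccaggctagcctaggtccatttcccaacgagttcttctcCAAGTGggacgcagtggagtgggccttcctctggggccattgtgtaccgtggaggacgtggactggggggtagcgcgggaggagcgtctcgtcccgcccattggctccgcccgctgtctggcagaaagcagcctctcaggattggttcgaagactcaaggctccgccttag
The Cd3d window holds 1 E-box and the Cd3g window 3, with none of the Runx letters TGTGGT in any of the 5. The windows searched did not cover every chromosome. Among them were windows for 31 of the 40 listed genes, 46 windows in all. Searched on both strands, CANNTG was in 31 of those 46 and in 66.2% of 32851 promoter windows of the same length, TGTGGT was in 4 (14.0% of all), TATAAA in 3 (12.4%) and the forkhead letters TGTTTAC in 3, those of Grap2, Nfatc2 and Nfatc3 (3.17%). A match is a description of the letters and not a binding site.

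Among the coreceptor and surface modulators, Cd4 passed as lower in Foxp3+ cells at CD24hi and at CD24int. It read 9.49, 9.08 and 9.29 on the Foxp3- CD24hi arrays against 8.54, 8.46 and 8.64 on the Foxp3+ ones, which did not overlap (-0.74 ± 0.16, adjusted p = 0.00127). At CD24int it read 9.32, 8.86 and 9.15 against 8.51, 8.49 and 8.73 (-0.54 ± 0.16, adjusted p = 0.0213), a call lost without replicate 1 of either group (-0.50 and -0.43), without Foxp3+ replicate 2 (-0.49) or without Foxp3- replicate 3 (-0.52). At CD24lo the Foxp3- arrays were at 8.34, 8.24 and 8.25 and the Foxp3+ arrays at 8.56, 8.65 and 8.74, a difference of 0.37 ± 0.16 that did not pass (adjusted p = 0.11). Cd2, an adhesion receptor that amplifies the signal, rose at CD24lo, where the Foxp3- arrays read 10.37, 11.11 and 11.32 and the Foxp3+ arrays 12.23, 12.38 and 12.35 (1.39 ± 0.19, a 2.62-fold difference, adjusted p = 3.16e-06). Its averaged rise of 0.45 ± 0.11 rested on that level, since without the CD24lo groups it was -0.025 (adjusted p = 0.94). Cd5 and Cd6, receptors that dampen signalling, rose at CD24lo by 0.57 ± 0.12 and 0.63 ± 0.14, and their averaged rises of 0.25 and 0.34 did not pass without the CD24lo groups (0.09 and 0.20). Ptprc, which encodes the phosphatase CD45, was the brightest member that did not pass in any of the 4 Foxp3 comparisons, with an averaged difference of 0.05 ± 0.07 (95% interval -0.08 to 0.19).

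Of the proximal kinases, Zap70 was lower in Foxp3+ thymocytes at each CD24 level on the probe set used. It read 10.62, 10.45 and 10.53 on the Foxp3- CD24hi arrays, 10.59, 10.22 and 10.37 at CD24int and 11.09, 10.91 and 10.86 at CD24lo, and on the Foxp3+ arrays 10.00, 9.78 and 10.12, then 9.82, 9.89 and 10.01, then 9.92, 10.00 and 10.03. No Foxp3+ array reached the Foxp3- arrays of its level. The fall was 0.68 ± 0.06 on average (adjusted p = 4.82e-09), with -0.57, -0.49 and -0.97 at the 3 levels. The other Zap70 probe sets stood at -0.50 and -0.14 on average, the latter at 0.01, -0.30 and -0.13 at the 3 levels. Fyn, the other Src kinase of the receptor, fell by 0.35 ± 0.09 on average, and its calls at CD24hi and CD24int were lost without single arrays, namely replicate 1 of Foxp3- CD24hi (-0.42) and any CD24int array except replicate 2 of the Foxp3- group (-0.37 to -0.51). Txk, a Tec family kinase, fell by 0.40 ± 0.10 on average.

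Tec, the kinase that gives that family its name, did not follow the others. Its arrays read 7.36, 7.23 and 7.03 in Foxp3- CD24hi and 8.20, 7.86 and 7.97 in Foxp3+ CD24hi cells, a rise of 0.80 ± 0.16 (adjusted p = 0.000554). At CD24lo the order was the opposite, with 8.75, 8.22 and 8.14 in Foxp3- and 7.67, 7.62 and 7.35 in Foxp3+ cells (-0.82 ± 0.16, adjusted p = 0.000312), and at CD24int, where the difference did not pass, the arrays read 7.76, 7.34 and 7.29 against 7.84, 7.73 and 7.52. The averaged difference was 0.07 ± 0.09 and did not pass.

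Of the 7 adaptors 6 fell in the averaged comparison, the exception being Sh2d2a (-0.06 ± 0.07). Lat, the membrane scaffold that Zap70 phosphorylates, read 12.57, 12.34 and 12.32 on the Foxp3- CD24hi arrays, 12.32, 12.10 and 12.16 at CD24int and 11.65, 11.60 and 11.68 at CD24lo. On the Foxp3+ arrays it read 11.74, 11.79 and 11.55, then 11.63, 11.70 and 11.61, then 11.56, 11.73 and 11.65. The Foxp3+ groups held near the level that Foxp3- cells showed at CD24lo, so Lat fell at CD24hi (-0.72 ± 0.12, adjusted p = 0.000106) and CD24int (-0.55 ± 0.12, adjusted p = 0.0022) and stood at 0.00 ± 0.12 at CD24lo (95% interval -0.25 to 0.26).

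Themis, an adaptor needed for thymocyte selection, had a like pattern, with 9.48, 9.05 and 9.04 in Foxp3- CD24hi, 8.97, 8.82 and 9.05 at CD24int and 7.65, 7.75 and 7.94 at CD24lo. The Foxp3+ arrays were at 8.51, 8.19 and 8.44, then 8.09, 8.16 and 8.40, then 7.98, 7.90 and 8.01. It fell by 0.81 ± 0.12 at CD24hi and 0.73 ± 0.12 at CD24int and did not pass at CD24lo (0.18). Grap2 (GADS), which links Lat to SLP-76, fell by 0.92 ± 0.14 at CD24hi, where its arrays were 7.18, 7.30 and 6.90 in Foxp3- and 6.42, 5.95 and 6.25 in Foxp3+ cells, and by 0.61 ± 0.14 at CD24int (7.41, 7.29 and 7.36 against 6.69, 6.90 and 6.65). At CD24lo, where it did not pass, the arrays were 6.76, 7.05 and 7.18 against 6.70, 6.88 and 6.69. Lcp2 (SLP-76) and Skap1, which couples to integrins, fell at CD24hi by 0.52 ± 0.10 and 0.64 ± 0.14. Sh2d1a (SAP), the adaptor of the SLAM receptors, fell at CD24hi (-0.75 ± 0.13, adjusted p = 0.000122) and was at 0.34 at CD24int, and the difference between those differences, 1.09 ± 0.18, passed (adjusted p = 0.00143). In that test of CD24int against CD24hi 1 member was higher and 2 were lower (all genes 1.01% and 0.533%, 1.54% together).

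Of the 6 effectors 0 passed at CD24hi in limma, with 1, Malt1, at an unadjusted p under 0.05, and Malt1 passed there with the replicate block (-0.51, adjusted p = 0.031). Malt1, a paracaspase that acts with Bcl10, read 9.15, 8.52 and 8.85 on the Foxp3- CD24int arrays and 8.06, 8.07 and 8.19 on the Foxp3+ ones, and fell by 0.73 ± 0.21 (adjusted p = 0.0139), a call lost without replicate 1 of Foxp3- CD24int (-0.58). At the other levels the Malt1 arrays overlapped, with 8.99, 8.37 and 8.20 against 7.92, 8.41 and 7.71 at CD24hi and 8.47, 8.16 and 8.02 against 8.19, 8.20 and 8.23 at CD24lo. Bcl10, its partner, rose by 0.39 ± 0.11 at CD24int and 0.44 ± 0.11 at CD24lo, the former lost without replicate 1 of Foxp3- CD24int (0.33) or replicate 3 of Foxp3+ CD24int (0.36). Rasgrp1, the exchange factor that activates Ras, rose at CD24lo (0.82 ± 0.13, adjusted p = 2.01e-05), and Prkcq, protein kinase C theta, fell on average by 0.22 ± 0.07. Plcg1 and Vav1 did not pass in any of the 4 Foxp3 comparisons (averaged -0.03 and -0.09). Of the NFAT factors, Nfatc1 fell by 0.59 ± 0.08, its 4 other probe sets standing at -0.66 to -1.21 (at CD24lo -1.57 to -2.37 against -1.02). Nfatc2 fell by 0.28 ± 0.07 on average and did not pass when its probe sets were averaged (-0.03). Nfatc3 stood at -0.02 ± 0.06 on the probe set used. Its other probe set stood at -0.32 on average, and at -0.51 at CD24hi against 0.20 on the one used.

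The negative regulators moved in both directions, 4 up and 4 down of 10 on average. Pag1, the membrane adaptor that recruits the inhibitory kinase Csk, read 10.81, 10.62 and 10.52 on the Foxp3- CD24hi arrays, 10.76, 10.44 and 10.44 at CD24int and 10.95, 10.87 and 10.95 at CD24lo. On the Foxp3+ arrays it read 9.76, 9.74 and 9.56, then 9.24, 9.74 and 9.50, then 9.17, 9.63 and 9.47. No Foxp3+ array reached a Foxp3- array. On the probe sets used, Pag1 had the largest averaged fall of the members, 2.25-fold (-1.17 ± 0.08, adjusted p = 3.02e-11). The other Pag1 probe sets stood at -0.97, -0.71 and -0.21 on average, so the size of its fall depends on the probe set. Ptpn6 (SHP-1), an inhibitory phosphatase, fell by 0.72 ± 0.08 and Csk itself by 0.24 ± 0.05. The Ptpn6 call at CD24int (-0.51) was lost without replicate 1 of either group (-0.42 in each case) or replicate 3 of Foxp3- CD24int (-0.46).

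Cblb, a ubiquitin ligase that restrains activation, was the largest rise. Its arrays read 8.85, 8.74 and 8.91 in Foxp3- CD24hi, 9.53, 9.19 and 9.34 at CD24int and 9.16, 8.97 and 9.06 at CD24lo, against 10.16, 10.12 and 10.13, then 9.79, 10.01 and 9.94, then 9.87, 9.98 and 10.05 in Foxp3+ cells. Every Foxp3+ array was above every Foxp3- array. The rise was 1.89-fold on average (0.92 ± 0.06, adjusted p = 3.96e-12) and was larger at CD24hi (1.30) than at CD24int (0.56), a difference of -0.75 ± 0.15 that passed (adjusted p = 0.00553). Ptpn22, a phosphatase of Lck and Zap70, rose at CD24hi, with 8.91, 8.73 and 8.51 in Foxp3- and 9.47, 9.26 and 9.63 in Foxp3+ cells (0.74 ± 0.12, adjusted p = 6.56e-05). At CD24int it read 9.76, 9.45 and 9.42 against 9.17, 9.36 and 9.23 and at CD24lo 10.29, 10.01 and 10.13 against 9.69, 9.96 and 9.95, and neither difference passed (-0.29 and -0.28). The change from CD24hi to CD24int, -1.02 ± 0.17, passed (adjusted p = 0.00132).

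The paralogues Ubash3a and Ubash3b (the TULA proteins, Sts-2 and Sts-1, which bind Cbl) went opposite ways at CD24lo. Ubash3a read 7.53, 7.73 and 7.65 in Foxp3- and 9.19, 9.04 and 9.05 in Foxp3+ cells (1.45 ± 0.14, 2.74-fold, adjusted p = 1.23e-08), and Ubash3b read 9.74, 9.52 and 9.14 against 8.11, 7.83 and 8.13 (-1.44 ± 0.20, 2.72-fold lower, adjusted p = 5.43e-06). At CD24hi Ubash3a read 9.11, 8.60 and 8.59 against 8.86, 8.98 and 8.76 and Ubash3b 7.93, 7.81 and 7.67 against 8.08, 7.19 and 7.93, and neither passed. At CD24int Ubash3a read 8.79, 8.43 and 8.58 against 8.86, 8.93 and 8.93 and Ubash3b 8.53, 8.17 and 8.08 against 8.11, 7.61 and 7.74, and again neither passed. Their averaged calls of 0.62 and -0.65 were lost without the CD24lo groups (0.20 and -0.25). Dgka, a kinase that removes diacylglycerol, rose by 0.64 ± 0.16 at CD24lo and passed at CD24hi with the replicate block (0.37, adjusted p = 0.0044), and its averaged rise of 0.27 was lost without any of 8 single arrays (0.23 to 0.26) and without the CD24lo groups (0.08). Cbl rose by 0.21 ± 0.08 on average, a call lost without any of 11 single arrays (0.17 to 0.21), and averaged over its probe sets it was -0.014. Dgkz stood at 0.00 ± 0.08.

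The CD24lo comparison carried a difference in innate-like T cell transcripts. In Foxp3- CD24lo cells the 10 innate-like T cell markers had a mean of 9.78 log2 units, and all 10 were above log2 6, against 6.18 in Foxp3- CD24int and 5.11 in Foxp3+ CD24lo cells. Zbtb16 (PLZF) stood there at 10.90, Trgv4, a gamma-delta receptor gene, at 12.38 and Klrd1 at 9.74. Of these markers 10 of 10 rose from CD24int to CD24lo within Foxp3- cells, and 9 of 10 were lower and 1 higher in Foxp3+ than in Foxp3- CD24lo cells. Their part in the CD24lo differences was not tested. Of the members that passed at CD24lo, Cd3g, Cd247, Zap70, Pag1, Ptpn6, Bcl10, Cblb, Nfatc1 and Nfatc2 passed in the same direction at CD24int, where those markers had summed intensities of 522 to 1513 in Foxp3- cells. Of these, Nfatc1 was lost at CD24int without replicate 1 of Foxp3+ cells (-0.38), and Nfatc2 without replicate 1 of either group (-0.29 and -0.33) or replicate 2 of Foxp3- cells (-0.38) and at CD24lo without replicate 1 of Foxp3+ cells (-0.33).

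**Figure D3:**
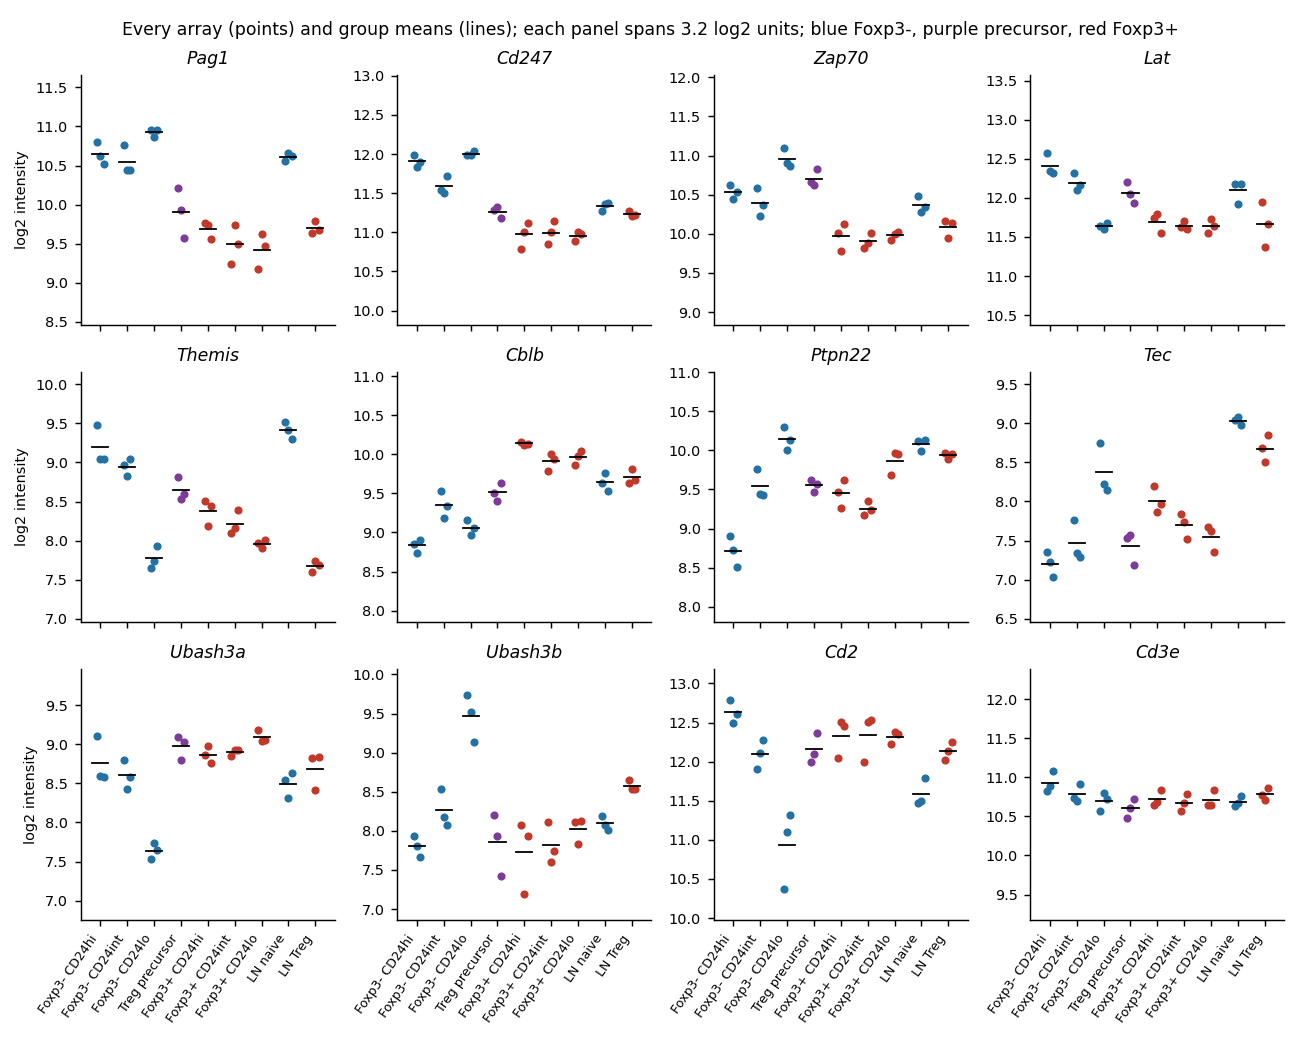
Log2 intensity of 12 members on every array (points) with group means (lines) in 9 groups, blue for Foxp3-, purple for precursors and red for Foxp3+ cells; each panel spans 3.2 log2 units, so heights compare within a panel. Cd3e stays within 0.33 log2 units between group means, Pag1 and Cd247 separate the thymic classes at each CD24 level, and Ubash3a, Ubash3b and Cd2 stand apart in Foxp3- CD24lo cells.

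In lymph node, Tregs were set against naive T cells, and 6 members fell and 3 rose (all genes 4.35% and 8.01%), with a median of -0.07 over the members and -0.04 over all genes. Themis fell furthest, from 9.52, 9.42 and 9.30 in naive cells to 7.60, 7.74 and 7.69 in Tregs, a 3.33-fold difference (-1.73 ± 0.12, adjusted p = 1.06e-10), and 3 further Themis probe sets stood between -1.47 and -2.22. Pag1 fell by 0.91 ± 0.15, from 10.56, 10.66 and 10.62 to 9.63, 9.79 and 9.68, Txk by 0.77 ± 0.17 and Grap2 by 0.75 ± 0.14, from 7.62, 7.67 and 7.53 to 6.82, 6.88 and 6.88.

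Sh2d1a rose by 0.67 ± 0.13, Cbl by 0.61 ± 0.13 and Sh2d2a (TSAd), an adaptor of Lck, by 0.51 ± 0.12. Lat, at 12.18, 11.93 and 12.18 in naive cells and 11.95, 11.38 and 11.67 in Tregs, fell by 0.43 ± 0.12 with overlapping arrays, and its call was lost without replicate 1 or 3 of naive cells (-0.39 each) or replicate 2 (-0.29) or 3 (-0.43) of Tregs. The Ptpn6 call (-0.45 ± 0.14) was lost without the same 4 arrays (-0.34 to -0.48). With the replicate number as a block 17 members passed, 8 higher and 9 lower (all genes 18.1% in either direction, against 12.4% without it). The block added Cd2 (0.55), Ubash3b (0.48), Cd5 (0.36), Cd6 (0.31) and Lcp2 (0.29) as higher and Dgka (-0.40), Tec (-0.36) and Zap70 (-0.29) as lower. B cell markers were higher in both lymph node groups than in thymus, with summed intensities of 4103 to 5093 in Tregs and 2733 to 2974 in naive cells. Cell cycle genes rose in Tregs, 9 of 20 passing, with summed intensities of 14171 to 22676 against 11744 to 12997. Of the innate-like markers 6 of 10 fell and 1 rose, with summed intensities of 2039 to 2087 in Tregs and 1250 to 1576 in naive cells. The sum in Tregs was mostly that of the brightest of the 10, Il2rb, at 10.69 log2 units. The mean over the 10 went the other way, at 5.43 log2 units in Tregs and 6.66 in naive cells. The part of these lists of markers was not tested.

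Some members did not pass in lymph node. Cd3e read 10.77, 10.71 and 10.86 in Tregs and 10.63, 10.66 and 10.76 in naive cells, and Zap70 10.16, 9.95 and 10.14 against 10.49, 10.28 and 10.35. Zap70 did not pass (-0.29 ± 0.11, adjusted p = 0.107), but passed with the block (adjusted p = 0.034) and with quantile normalization (-0.35). Cblb read 9.64, 9.81 and 9.67 against 9.63, 9.76 and 9.53, and Cd4 8.85, 8.20 and 8.47 against 9.16, 8.70 and 8.69. Neither passed, although Cd4 passed without replicate 1 of Tregs (-0.51, adjusted p = 0.046).

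Whether the lymph node difference departs from the averaged thymic one was tested directly, with 7 members higher and 3 lower (all genes 5.6% and 3.37%). Cd247 and Cd3g were closer to 0 in lymph node, at -0.11 and -0.06 against -0.86 and -0.55, which gave differences of 0.75 ± 0.11 (adjusted p = 5.92e-05) and 0.50 ± 0.13 (adjusted p = 0.0122). Averaged over its probe sets, Cd247 stood at 0.26 and did not pass. Cblb was at 0.07 in lymph node against 0.92 in thymus (-0.86 ± 0.12, adjusted p = 1.83e-05), and Themis fell further in lymph node (-1.28 ± 0.14, adjusted p = 9.67e-07). Pag1 (-0.91 against -1.17) did not pass in this test. Zap70 did not pass, but did without replicate 2 of lymph node Tregs (0.46), replicate 2 of Foxp3- CD24int (0.42) or replicate 3 of Foxp3+ CD24hi (0.41), without dim genes (adjusted p = 0.031) and with a constant of 16 added before the logarithm (adjusted p = 0.030). In the same test 19 of 20 cell cycle genes were higher, and their part was not tested.

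The next question was where precursors stand between Foxp3- and Foxp3+ CD24hi thymocytes. Against Foxp3- CD24hi cells 13 members fell and 2 rose in precursors (all genes 4.03% and 5.08%), with a median of -0.30 over the members and -0.01 over all genes. Nfatc1 did not pass on the probe set used (-0.30), and its other probe sets stood at 0.48 to 0.75, so its sign depends on the probe set. The comparison of Foxp3+ with Foxp3- CD24hi cells shares the Foxp3- arrays. Side by side, precursors and Foxp3+ cells stood at -0.64 and -0.93 for Cd247, -0.74 and -0.96 for Pag1, -1.11 and -0.50 for Txk, 0.84 and 0.74 for Ptpn22 and 0.68 and 1.30 for Cblb. With the replicate block 22 passed (all genes 14.7% in either direction, against 9.11% without it). The block added Cd2 (-0.47), Cd4 (-0.42), Rasgrp1 (-0.39), Dgka (-0.38), Lat (-0.35), Lcp2 (-0.26) and Cd3d (-0.25) as lower.

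Txk fell furthest, from 9.65, 9.43 and 9.31 in Foxp3- CD24hi cells to 8.38, 8.33 and 8.35 in precursors, and stood at 8.91, 9.20 and 8.78 in Foxp3+ CD24hi cells. It was 2.16-fold lower in precursors (-1.11 ± 0.17, adjusted p = 5.39e-05), the lowest of the 9 groups. Malt1 (-0.88 ± 0.21; 7.96, 7.52 and 7.45 in precursors), Skap1 (-0.87 ± 0.14), Prkcq (-0.79 ± 0.12) and Pag1 (-0.74 ± 0.15; 10.21, 9.94 and 9.57) followed. Cd247 fell by 0.64 ± 0.10. Without the block Cd3e passed here alone among the comparisons made, at -0.33 ± 0.10 (adjusted p = 0.0424) with 10.48, 10.60 and 10.72 in precursors, and was lost without replicate 1 (-0.27) or 2 (-0.33) of precursors or replicate 2 (-0.35) or 3 (-0.26) of Foxp3- CD24hi.

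Ptpn22 rose by 0.84 ± 0.12 (9.63, 9.46 and 9.57 in precursors) and Cblb by 0.68 ± 0.10 (9.51, 9.41 and 9.63). Both stood above every Foxp3- CD24hi array. Single arrays decided 5 of the 15 calls: Cd3e as above, Cd3g without replicate 1 of Foxp3- CD24hi (-0.38) or replicate 2 (-0.41) or 3 (-0.39) of precursors, Grap2 without replicate 3 of precursors (-0.45), and Themis (-0.40) and Malt1 (-0.64) without replicate 1 of Foxp3- CD24hi. Without the array that held liver transcripts 15 members passed, 13 lower and 2 higher. Of the others with array values, Themis read 8.81, 8.53 and 8.60, Grap2 6.71, 6.64 and 6.23, Tec 7.53, 7.57 and 7.19, Cd2 12.00, 12.10 and 12.37 and Cd4 9.00, 8.60 and 8.99 in precursors. Lat read 12.20, 12.05 and 11.94 there, Zap70 10.67, 10.63 and 10.82, Ubash3a 9.09, 8.80 and 9.03 and Ubash3b 8.20, 7.94 and 7.43.

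From precursors to Foxp3+ CD24hi cells 6 members rose and 4 fell (all genes 6.77% and 9.27%), the arrays of the precursors being shared with the comparison above. Zap70, which did not pass between precursors and Foxp3- CD24hi cells (0.17 ± 0.11, 95% interval -0.06 to 0.40), was 1.67-fold lower in Foxp3+ CD24hi cells than in precursors (-0.74 ± 0.11, adjusted p = 3.37e-05). Dgka rose by 0.75 ± 0.16, Cblb by 0.63 ± 0.10, Txk by 0.61 ± 0.17, Prkcq by 0.60 ± 0.12 and Tec by 0.58 ± 0.16. The falls of Cd3g (-0.38), Lat (-0.37) and Cd247 (-0.29) followed that of Zap70. The replicate block added falls of Ptpn6 (-0.35) and Lcp2 (-0.26).

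Cblb rose in each of the 2 steps, while Txk and Prkcq fell in the first and rose in the second. Without replicate 1 or without replicate 2 of Foxp3+ CD24hi 6 members passed in place of 10. The calls of Cbl (0.37) and Txk (0.49) were lost without replicate 2 and those of Cd3g (-0.27), Cd247 (-0.20), Tec (0.48) and Lat (-0.39) without replicate 1, with further losses without replicates 1 to 3 of precursors for Tec (0.46 without replicate 3), Cd3g (-0.37 without replicate 2), Lat (-0.30 without replicate 1 and -0.38 without replicate 2) and Cd247 (-0.28 without replicate 1 and -0.26 without replicate 2), without replicate 2 of Foxp3+ CD24hi for Cd247 (-0.31) and Lat (-0.42), and without its replicate 3 for Lat (-0.29). Without arrays numbered 1 in every group the split was 6 higher and 1 lower, and with quantile normalization 75.0% of the calls were higher against 60.0%.

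Markers moved with both of these comparisons. Of 9 double-positive thymocyte markers, 5 were higher in precursors than in Foxp3- CD24hi cells and 6 were lower in Foxp3+ CD24hi cells than in precursors, with summed intensities of 2822 to 4822 in precursors and 1461 to 3003 in the 24 other arrays. Rag1, a recombinase gene of immature thymocytes, stood at 8.97 ± 0.78 (SD, n = 3) in precursors, at 6.77 ± 0.17 in Foxp3- CD24hi and at 4.20 ± 0.09 in Foxp3+ CD24hi cells. Of the 10 innate-like T cell markers 8 were higher in precursors than in Foxp3- CD24hi cells, with summed intensities of 1164 to 3123 against 346 to 475. In Foxp3+ CD24hi cells 8 of those 10 were lower and 1 higher than in precursors, and 6 of 20 cell cycle genes were lower. Their part in the members' differences was not tested.

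**Figure D4:**
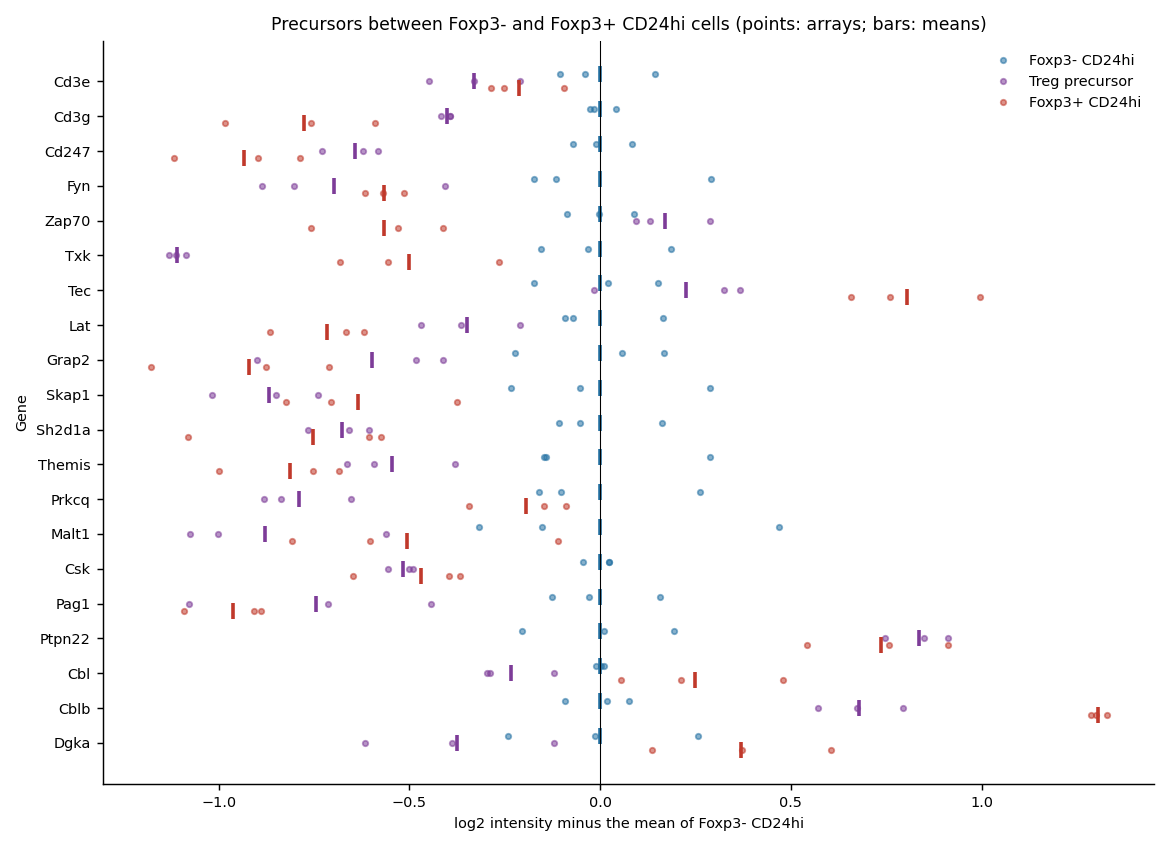
Log2 intensity of the 20 members that passed in either comparison with precursors, as the difference from the mean of Foxp3- CD24hi cells, with arrays as points and means as bars (blue Foxp3- CD24hi, purple precursors, red Foxp3+ CD24hi). Txk, Malt1 and Prkcq are lowest in precursors, Zap70 is lowest in Foxp3+ cells, and Cblb steps up from Foxp3- to precursor to Foxp3+ cells.

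Along maturation within Foxp3+ thymocytes few of these genes passed. From CD24hi to CD24int 0 of 39 members passed in limma (all genes 0.242% higher and 0.044% lower, 0.286% together), with 5 under an unadjusted p of 0.05, and from CD24int to CD24lo 0 passed (all genes 0.011% higher and 0.0055% lower, 0.0165% together), with 2 under it. With the replicate block 1 member passed in each, Grap2 and Ptpn22 respectively (all genes 1.15% and 0.126%). The brightest member, Ptprc, stood at -0.16 ± 0.11 and 0.02 ± 0.11 in these steps. From CD24hi to CD24lo, a comparison that uses the same arrays, Sh2d1a (0.58 ± 0.13), Grap2 (0.55 ± 0.14) and Nfatc2 (0.49 ± 0.12) rose and Plcg1, the phospholipase that splits phosphatidylinositol, fell (-0.46 ± 0.13; all genes 2.29% and 0.808%, 3.1% together). With the block 9 passed (all genes 7.15%), with Ptpn22 (0.42) and Bcl10 (0.26) added as higher and Tec (-0.46), Themis (-0.42) and Dgkz (-0.38) as lower. Each of the 4 calls was lost without some single array: 2 remained without replicate 1 of CD24hi, 1 without replicate 2 of CD24hi, 1 without replicate 2 of CD24lo and 0 without replicate 3 of CD24lo. The values then lay between 0.42 and 0.58 for Grap2, 0.41 and 0.53 for Sh2d1a, 0.42 and 0.51 for Nfatc2 and -0.40 and -0.48 for Plcg1. Grap2 was also lost without replicate 1 of CD24lo or replicate 3 of CD24hi, Plcg1 without the former and Nfatc2 without the latter. With quantile normalization 60.0% of the calls were higher against 75.0%. Cell cycle genes fell in this step, 3 of 20, and their part was not tested.

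In Foxp3- thymocytes more members passed. From CD24hi to CD24int Ptpn22 (0.83 ± 0.12), Nfatc2 (0.57 ± 0.12) and Cblb (0.52 ± 0.10) rose and Sh2d1a (-0.75 ± 0.13) and Lcp2 (-0.42 ± 0.10) fell (all genes 2.26% and 2.75%, 5.01% together). With the block 10 passed (all genes 10.0%), with Dgka (0.37) and Nfatc3 (0.34) added as higher and Cd2 (-0.53), Cd247 (-0.32) and Csk (-0.26) as lower. The Lcp2 call was lost without replicate 1 of CD24hi (-0.38) or replicate 2 or 3 of CD24int (-0.39 each), and 5 members passed without the array that held liver transcripts. In this step 5 of 10 innate-like markers rose and 3 of 9 double-positive markers fell, and their part was not tested.

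From CD24int to CD24lo 12 members fell and 9 rose (all genes 4.13% and 7.86%). Rasgrp1 fell by 1.23 ± 0.13 (adjusted p = 9.19e-08), Themis by 1.17 ± 0.12, Cd2 by 1.16 ± 0.19, Ubash3a by 0.96 ± 0.14 and Dgka by 0.92 ± 0.16. Ubash3b rose by 1.20 ± 0.20, Tec by 0.91 ± 0.16, Sh2d1a by 0.87 ± 0.13, Ptpn22 by 0.60 ± 0.12 and Zap70 by 0.56 ± 0.11. Cd3d, at -0.05 ± 0.14, and Cd3e, at -0.09 ± 0.10, did not pass, while Cd247 rose by 0.42 ± 0.10. The replicate block added Nfatc2 (0.36) as higher and Fyn (-0.41) and Cblb (-0.29) as lower. Nfatc1 rose by 0.49 ± 0.13 on the probe set used and stood at 1.34 to 1.92 on its 4 other probe sets, so the size of its rise depends on the probe set. Of the 21 calls 7 were lost without some single array. Without replicate 1 of CD24int Cd6 (-0.43), Ptprc (-0.31), Txk (-0.53), Sh2d2a (0.40) and Malt1 (-0.47) did not pass, without its replicate 2 Ptprc (-0.39), Nfatc1 (0.44) and Ptpn6 (0.41), and without its replicate 3 Txk (-0.57) and Malt1 (-0.62). Without replicate 1 of CD24lo Txk (-0.41) and Ptpn6 (0.43) did not pass, and without its replicate 2 or 3 Cd6, Ptprc, Sh2d2a and Malt1 did not (-0.47 and -0.48, -0.35 each, 0.43 and 0.41, -0.60 and -0.53). The step holds the rise of innate-like markers given above, and its part was not tested.

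Lymph node cells were last set against thymocytes of their class. In lymph node Tregs Tec (1.13 ± 0.16, 2.18-fold, adjusted p = 3.43e-05), Malt1 (0.87 ± 0.21) and Nfatc1 (0.69 ± 0.13) were higher than in Foxp3+ CD24lo thymocytes, the 3 members that passed (all genes 3.15% higher and 2.78% lower, 5.93% together). Tec read 8.68, 8.50 and 8.85 in lymph node Tregs and Malt1 9.42, 9.06 and 8.75, and neither overlapped the thymic arrays. The Malt1 call was lost without replicate 1 of lymph node Tregs (0.69), and with the block 8 members passed (all genes 10.6%), with Ubash3b (0.55), Cbl (0.39), Nfatc3 (0.31) and Lcp2 (0.28) added as higher and Ubash3a (-0.40) as lower. The other members with array values read 12.03, 12.14 and 12.25 (Cd2), 9.97, 9.89 and 9.95 (Ptpn22), 8.82, 8.41 and 8.83 (Ubash3a) and 8.66, 8.53 and 8.54 (Ubash3b) in lymph node Tregs. B cell markers rose with this comparison, 5 of 8, as did 4 of 12 markers of antigen-presenting cells (summed intensities of 862 to 1229 against 403 to 515), and their part was not tested.

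Tec was also the member with the largest difference between lymph node naive cells, at 9.04, 9.08 and 8.98, and Foxp3- CD24int thymocytes (1.57 ± 0.16, adjusted p = 2.3e-07). Ptpn22 (0.54 ± 0.12; 10.13, 10.00 and 10.13 in naive cells) and Themis (0.46 ± 0.12) were higher there and Sh2d2a lower (-0.41 ± 0.12; all genes 4.38% and 4.18%), and 2 of the 4 passed without replicate 1 or without replicate 2 of naive cells or without replicate 2 of Foxp3- CD24int. The calls lost were those of Themis (0.40 to 0.46) and Sh2d2a (-0.34 to -0.44). Against Foxp3- CD24lo thymocytes, 12 members were higher and 6 lower in naive cells (all genes 6.03% and 8.58%), led by Themis (1.63 ± 0.12), Dgka (1.05 ± 0.16) and Rasgrp1 (1.01 ± 0.13) upward and Ubash3b (-1.37 ± 0.20), Sh2d2a (-0.84 ± 0.12) and Ptpn6 (-0.75 ± 0.14) downward. Naive cells read 11.47, 11.49 and 11.79 for Cd2, 8.54, 8.31 and 8.63 for Ubash3a, 8.19, 8.08 and 8.01 for Ubash3b and 9.14, 8.88 and 8.92 for Malt1. All 10 innate-like markers and 18 of 20 cell cycle genes were lower in naive cells than in Foxp3- CD24lo thymocytes, 20 of 20 cell cycle genes were lower than in Foxp3- CD24int ones, and 4 of 8 B cell markers were higher than in either. Their part was not tested. Of these 18 calls 5 were lost without some single array: Cd4 (0.42 without naive replicate 1), Cd2 (0.37 without Foxp3- CD24lo replicate 1 and 0.55 without naive replicate 3), Txk (0.49 and 0.54, without the same arrays), Lat (0.41 without naive replicate 1 or 3) and Malt1 (0.68 without naive replicate 1 and 0.67 without Foxp3- CD24lo replicate 3).

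Other genes of the pathway, outside the 40, were read from lists of further components in the averaged Foxp3 comparison. Of 20 further adaptors and kinases 4 rose and 9 fell (median -0.21). The falls were led by Sh3bp2 (-1.62 ± 0.09), a Zap70-binding adaptor, Trat1 (-1.52 ± 0.09), a transmembrane adaptor of the receptor, and Lax1 (-1.48 ± 0.14). In lymph node Trat1 fell by 0.58 ± 0.16. Of 12 further phosphatases and ligases 3 rose and 4 fell (median -0.03), and Cish, an inhibitor induced by IL-2 signalling, rose most (2.88 ± 0.08), with a rise of 2.09 ± 0.13 already in precursors against Foxp3- CD24hi cells. Of 16 calcium and calcineurin genes 3 rose and 3 fell (median 0.02), among them Stim2 (1.13 ± 0.07), a calcium sensor of the endoplasmic reticulum, and Orai2 (-0.54 ± 0.07), a calcium channel subunit. Of 18 genes of Ras, ERK and PI3K signalling 6 rose and 5 fell (median 0.12), Pik3r1 by 0.72 ± 0.08 and Rasgrp2 by -0.73 ± 0.10. The background for these counts is that of all genes, 14.5% higher and 16.0% lower.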

How the data were processed

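Total RNA (50 ng) of 27 sorted samples was hybridised to Affymetrix 3' arrays. Per the submitters' processing notes the authors used RMA, whose version and settings are not given in the sources used here. The values they deposited are intensities on a linear scale, and their log2 was taken with no constant added. Folds of dim genes may still be compressed.

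Of 45101 probe sets, 34958 carry 1 gene symbol in the platform annotation, 932 several and 9211 none. The brightest single-symbol probe set stood for each of 18194 genes. A model with 9 group means was fitted to all of them with limma 3.58.1 (R 4.3.3) and moderated by empirical Bayes. Tests were two-sided, with Benjamini-Hochberg adjustment within each of 17 comparisons, a gene passing with an adjusted p under 0.05. Values after ± are standard errors unless marked SD. The method was tested on simulated data. The median SE was 0.15 for 2 groups of 3 arrays, 0.08 for the averaged comparison and 0.21 for a difference of differences.

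The members and all lists were chosen with earlier results of these data known. Any of the 40 could be named. Values by array were given for the 10 members with the widest range of group means and for Cd3e, Cd4, Zap70 and Lat, with others where a result turns on them. In each comparison up to 5 rises and 5 falls and the brightest member that did not pass were described first, with up to 3 other genes of each pathway list reported. One list is not reported here.

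Replicate numbers paired the samples in 10 of 17 comparisons, where the deviations of same-numbered arrays from their group means correlated above 0.1 in every pair. This pairing comes from the data, and the labels do not say what a number marks. Alternatives were quantile normalization, removal of genes whose highest group mean was under log2 6, a constant of 16, the mean of all probe sets, a replicate block, the compared groups alone, a trended robust prior, omission of the CD24lo groups and of each array, and, chosen after seeing the data, omission of the arrays numbered 1.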

Additional observations from a re-analysis of the deposited data

Results flagged for a closer look

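These 13 results are listed because the Foxp3 difference of a member was not the same in 2 settings, as tested by limma on the difference itself.

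From CD24hi to CD24int the Foxp3 difference moved by 1.09 ± 0.18 for Sh2d1a (from -0.75 to 0.34, adjusted p = 0.00143), by -1.02 ± 0.17 for Ptpn22 (from 0.74 to -0.29, adjusted p = 0.00132) and by -0.75 ± 0.15 for Cblb (from 1.30 to 0.56, adjusted p = 0.00553). Averaged over its probe sets Cblb did not pass (-0.84, adjusted p = 0.060).

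Between the thymic average and lymph node, the difference moved upward for 7 members: Ubash3b by 1.13 ± 0.24, Sh2d1a by 0.90 ± 0.15, Cd247 by 0.75 ± 0.11, Sh2d2a by 0.58 ± 0.14, Cd3g by 0.50 ± 0.13, Lcp2 by 0.50 ± 0.12 and Csk by 0.38 ± 0.10. It moved downward for 3: Themis by -1.28 ± 0.14, Cblb by -0.86 ± 0.12 and Dgka by -0.66 ± 0.18. Ubash3b (0.74) and Dgka (-0.47) did not pass without the CD24lo groups. Csk was lost without replicate 1 of lymph node Tregs (0.34) or replicate 2 (0.35) or 3 (0.36) of naive cells, and Dgka without replicate 1 of naive cells (-0.62) or replicate 3 of Tregs (-0.57). Groups of 3 arrays were too small for a check of single outlying samples.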

How the results depend on the processing

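Of 181 calls of members over the 17 comparisons, 132 were kept with each array left out in turn and 49 were lost with at least one. Leaving out 1 array gave 26 to 28 members in the averaged Foxp3 comparison, 17 to 19 at CD24hi, 9 to 15 at CD24int, 15 to 17 at CD24lo and 7 to 10 in lymph node. It gave 0 to 0 from Foxp3+ CD24hi to CD24int and from CD24int to CD24lo, 0 to 3 from CD24hi to CD24lo, 4 to 5 from Foxp3- CD24hi to CD24int and 16 to 20 from CD24int to CD24lo. Precursors against Foxp3- CD24hi gave 12 to 15, Foxp3+ CD24hi against precursors 6 to 11, lymph node Tregs against Foxp3+ CD24lo 2 to 3, naive cells against Foxp3- CD24lo 15 to 18 and against CD24int 2 to 4, the difference between CD24int and CD24hi 3 to 3 and that between lymph node and thymus 9 to 11.

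Without the CD24lo groups the averaged count was 18, Cd2 turned to -0.025, and 9 members departed between lymph node and thymus. All genes gave 2189 higher and 2242 lower in the averaged comparison and 753 and 504 between lymph node and thymus. With the mean of all probe sets Cbl turned to -0.014. With the replicate block the count was 17 in lymph node, 1 in each Foxp3+ step, 9 from Foxp3+ CD24hi to CD24lo, 10 from Foxp3- CD24hi to CD24int, 8 for lymph node Tregs against Foxp3+ CD24lo, 8 for naive cells against Foxp3- CD24int and 6 for the difference between CD24int and CD24hi. In the last 2 the block called 14.5% and 5.72% of all genes, and the other shares are given with the results. Over the 17 comparisons the block added 64 calls and lost 0. Of these, 41 were in the comparisons where numbers paired the samples and are named with the results, and 23 were in the others, among them Cd3d in the averaged comparison (-0.16, adjusted p = 0.0049), Cd4 (0.37) and Ptprc (0.27) at CD24lo and Zap70 between lymph node and thymus (0.39).

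Fitted alone, the compared groups gave 8 at CD24int, 0 from Foxp3+ CD24hi to CD24lo, 3 from Foxp3- CD24hi to CD24int, 9 for precursors against Foxp3- CD24hi and 6 for Foxp3+ CD24hi against precursors. Calls over all genes also went down in these fits. They were 1197 higher and 813 lower at CD24int, against 1575 and 1204 in the main fit. From Foxp3+ CD24hi to CD24lo they were 294 and 74 against 417 and 147. From Foxp3- CD24hi to CD24int they were 263 and 289 against 411 and 500. For precursors against Foxp3- CD24hi they were 612 and 389 against 925 and 733. For Foxp3+ CD24hi against precursors they were 819 and 985 against 1231 and 1686. Without the arrays numbered 1 the counts that moved were 9 at CD24int, 1 from Foxp3+ CD24hi to CD24lo and 3 from Foxp3- CD24hi to CD24int. Over all genes there were 1604 higher and 965 lower, 292 and 61, and 415 and 356, in that order. From Foxp3+ CD24int to CD24lo 1 passed under quantile normalization, on removal of dim genes, with a constant of 16 and when probe sets were averaged. The calls of all genes were 5 higher and 3 lower, 7 and 3, 12 and 4, and 6 and 4, in that order. Without dim genes or with the constant 8 passed from Foxp3- CD24hi to CD24int, and with the constant 5 for lymph node Tregs against Foxp3+ CD24lo. In the former step all genes gave 472 higher and 588 lower without dim genes and 422 and 580 with the constant. In the latter comparison they gave 632 and 539. In lymph node the higher share of calls, 33.3%, was 50.0% on removal of dim genes and 53.8% when probe sets were averaged. The causes of these moves were not tested beyond the fewer samples or genes that a setting leaves.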
